A study of Mus musculus with 6 samples.

Results

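Chromosome 14 carried 274 of the 9010 DNA regions listed for a mouse beta cell line that overexpresses the long noncoding RNA Meg3. Every listed row on chromosome 14 was taken, whatever its width. The chromosome was chosen by a measured value, since it had the lowest density of regions among the 19 autosomes. Its low density is therefore given as a description, with no test. Window counts, shares of empty windows and spacing depend largely on the same density, so their ranks are not separate evidence. The study used chromatin isolation by RNA purification (ChIRP), in which biotinylated antisense probes pull down an RNA together with the DNA cross-linked to it. MIN6-4N cells, a mouse insulinoma line, received either the pcDNA3.1 plasmid alone (clone V3) or pcDNA3.1 with Meg3 (clone M5). G418 was used for both clones, at 750 µg/ml to select them and at 500 µg/ml afterwards, so the controls carried the plasmid and the drug selection too. Each clone gave 3 libraries, namely input chromatin without probe and the pull-downs with the odd and the even probe pool. The regions described here come from the M5 clone, and each condition is 1 library from 1 clone of a tumour line. Expression was not measured in these data, so the beta cell identity of the line could not be checked against its markers.

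Meg3 is transcribed from the maternal copy of an imprinted cluster. It is known in pancreatic islets, where it is linked to beta cell function and to the growth of endocrine tumours. RNAs of this kind can stay on chromatin and recruit protein complexes that modify histones, including Polycomb complexes, which is why the DNA near them is mapped. In the RefSeq gene table (GRCm38.p6), chromosome 14 holds several genes with known roles in beta cells. Among them are Cacna1d, which encodes a voltage-gated calcium channel subunit, Kcnma1, which encodes a potassium channel, and Glud1, which encodes glutamate dehydrogenase. In the gene order of that table these are followed by Gata4, a transcription factor of pancreas and heart development, and Rb1, the retinoblastoma tumour suppressor. Towards the end of the chromosome come the protocadherins Pcdh17, Pcdh20 and Pcdh9, cell adhesion proteins best known from neurons. The Slitrk genes Slitrk1, Slitrk6 and Slitrk5, which encode neuronal membrane proteins, follow further on. They precede the glypicans Gpc5 and Gpc6 and the zinc finger genes Zic5 and Zic2. The region coordinates are on mm9 and the table is on another build, so no gene was assigned to a region. Whether the distal part of the chromosome is poor in genes was not tested.

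The regions ran from 6061336 to 125000541 (mm9), a span of 118.9 Mb. Of the 9005 nuclear regions they made up 3.04% (Clopper-Pearson 95% interval 2.7 to 3.42), while the chromosome made up 4.64% of the nuclear span. The density was 2.30 regions per Mb (95% exact Poisson interval 2.04 to 2.59), against 3.78 (3.70 to 3.86) over the other 18 autosomes together. The nearest autosomes in density were chromosome 18, with 2.5 per Mb (2.18 to 2.86), and chromosome 13, with 2.75 (2.46 to 3.07), closely followed by chromosome 2, with 2.77 (2.53 to 3.03). All 3 intervals overlapped that of chromosome 14. All intervals cover counting error only. Regions of 1 list are not replicates, and the list gives positions alone, so no p-value is given for any comparison below.

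**Figure D1:**
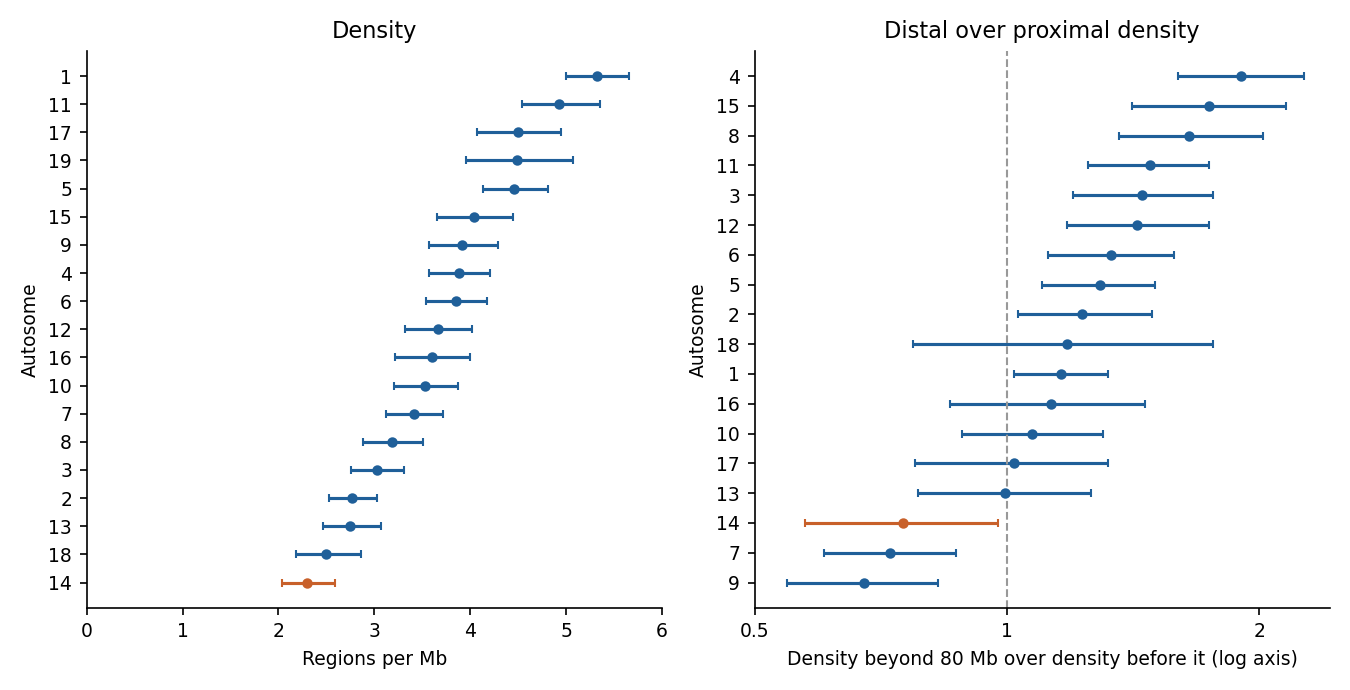
Left, regions per Mb of the span on each of 19 autosomes, with 95% exact Poisson intervals. Right, the density beyond 80 Mb divided by the density before it (log axis, with intervals from exact Clopper-Pearson shares) on the 18 autosomes that reach beyond 85 Mb. Chromosome 14 (orange) lies lowest on the left at 2.30 per Mb and next after chromosomes 9 and 7 on the right at 0.752.

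In windows of 5 Mb counted from the first base, chromosome 14 was thinly filled. Its longest stretch without a region was 4.25 Mb, so no window wholly inside the span could be empty. Of the 23 windows that lie wholly inside the span, 0 were empty. Their counts ran from 4 to 20 regions, with a median of 11. Over the other autosomes, the median of 442 such windows was 16 regions, with quartiles of 11 and 24, and 1 window was empty. On chromosome 14, 17 windows lay below that median, 2 at it and 4 above it, and 0 exceeded the upper quartile. The fullest window, with 20 regions, was lower than the fullest window of each other autosome, which ranged from 23 to 58. The median window was the lowest of the 19 autosomes, the next being 12 regions on chromosomes 2 and 18. Low window counts follow largely from the low density by which the chromosome was chosen.

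By the ratio of variance to mean, the counts varied comparatively little from window to window. Their mean was 11.6 ± 5.13 regions (SD over 23 windows), a ratio of variance to mean of 2.27. This ratio ranged from 1.74 on chromosome 19 to 8.06 on chromosome 4, and chromosome 14 ranked 16 of 19 from the highest. Of the nearest autosomes in density, chromosomes 13 and 18 had lower ratios of 2.24 and 2.09. Chromosome 2 had a higher ratio of 3.92. The ratio can be low where the mean count is low, and the mean on chromosome 14 was the lowest of the 19 autosomes. A ratio of 1 would hold for independent placement at 1 rate. A lack of crowded windows on chromosome 14 follows largely from the low density by which it was chosen. The emptiest full windows held 4 regions.

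Going along the chromosome, the partial first window (5 to 10 Mb) held 6 regions and the next held 11 (10 to 15 Mb) and 8 (15 to 20 Mb). A fuller stretch followed, with 19 regions from 20 to 25 Mb, 16 from 25 to 30 Mb, 13 from 30 to 35 Mb and 14 from 35 to 40 Mb. The window from 40 to 45 Mb held only 4. Counts then climbed from 11 (45 to 50 Mb) and 13 (50 to 55 Mb) to 16 (55 to 60 Mb) and 19 (60 to 65 Mb). After 15 regions from 65 to 70 Mb there was a second thin window, with 4 from 70 to 75 Mb. It lay directly beside a window with 19 regions from 75 to 80 Mb. In the proximal part 3 of 14 full windows, with 8, 4 and 4 regions, lay below the lower quartile of the other autosomes, and 9 lay below their median.

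Beyond 80 Mb counts were mostly lower, with 6 of 9 full windows below that quartile. The window from 80 to 85 Mb held 10 regions, and counts dropped to 5 from 85 to 90 Mb and 4 from 90 to 95 Mb. They rose again to 8 (95 to 100 Mb), 9 (100 to 105 Mb) and 12 (105 to 110 Mb), with 6 from 110 to 115 Mb. The window from 115 to 120 Mb held 20 regions and was the fullest of the whole chromosome. It was followed by 11 regions from 120 to 125 Mb and by the last region, alone in the partial window after it. With so few regions per window the counting intervals are wide. They ran from 1.09 to 10.2 for a count of 4 and from 12.2 to 30.9 for the count of 20.

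**Figure D2:**
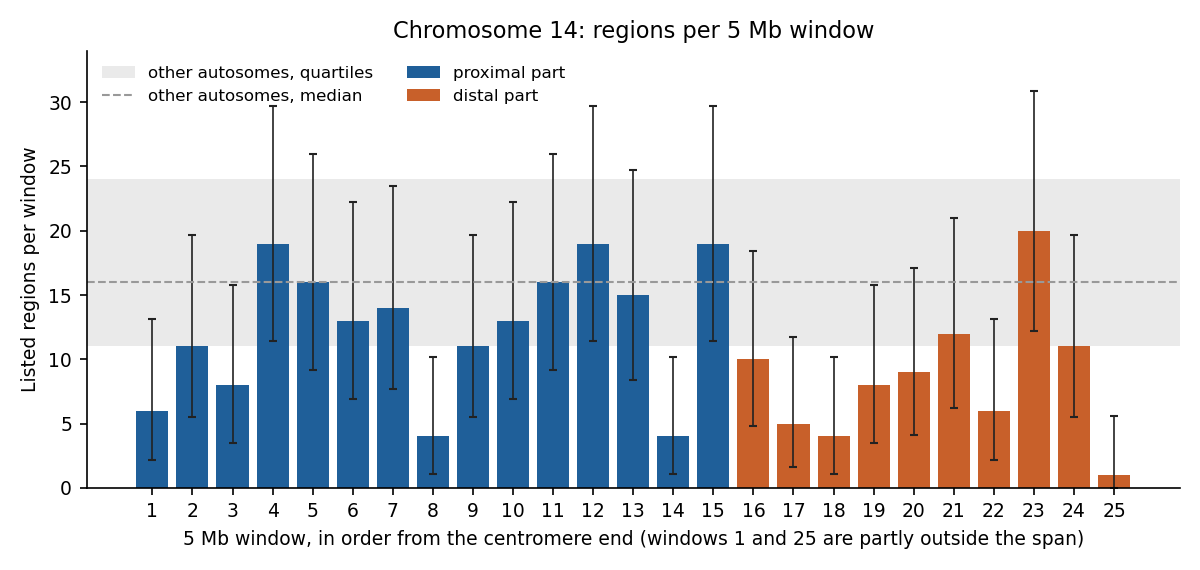
Bars give the number of listed regions in each 5 Mb window of chromosome 14, in order from the centromere end, with 95% exact Poisson intervals. The dashed line (16) and grey band (11 to 24) mark the median and quartiles of the other autosomes. No bar rises above the band, and the fullest window (20 regions) is in the distal part.

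The part beyond 80 Mb was sparser than the part before it. It held 86 regions on 45.0 Mb, or 1.91 per Mb (95% exact Poisson interval 1.53 to 2.36). The proximal part held 188 regions on 73.9 Mb, or 2.54 per Mb (2.19 to 2.93). The ratio of distal to proximal density was 0.752, with an interval of 0.575 to 0.975. This interval treats regions as independently placed, whereas the window counts varied 2.27 times as much as such placement gives. The boundary at 80 Mb fell inside a stretch of 1.40 Mb without a region, between regions ending at 79377612 and starting at 80777725.

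On most other autosomes the direction was the opposite. Of the 17 others with at least 5 Mb beyond the boundary, 14 had a ratio above 1 and 3 below it, the 3 being chromosomes 7, 9 and 13. The lowest ratio was 0.675 on chromosome 9 and the highest 1.90 on chromosome 4. Chromosome 7 had 0.725 and chromosome 13 had 0.995. The intervals of chromosomes 10, 16, 17 and 18, with ratios above 1, included 1, as did that of chromosome 13. A fixed boundary at 80 Mb falls at different relative positions on chromosomes of different length, so the order of these ratios mixes unlike parts.

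The distal part was not sparse throughout. It was divided at 115 Mb, the start of the fullest window, after the window counts had been seen, so the contrast between the resulting sections follows in part from that choice. From 80 to 115 Mb there were 54 regions, or 1.54 per Mb (1.16 to 2.01). From 115 Mb to the last region there were 32, or 3.20 per Mb (2.19 to 4.52), a higher value than for the proximal part. Within the proximal part, the section up to 40 Mb had 2.56 per Mb (2.05 to 3.16) and the section from 40 to 80 Mb had 2.52 (2.06 to 3.07). The low ratio beyond 80 Mb thus rested on 80 to 115 Mb, which had 0.607 times the proximal density. The first 10% of the whole span held 8.03% of the regions (22) and the last 10% held 13.1% (36).

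Adjacent windows were sparsest from 85 to 95 Mb, where 9 regions lay on 10 Mb, or 0.900 per Mb (0.412 to 1.71). Of these 9 regions, 5 lay between 85731627 and 87799602 and 4 between 92051705 and 93796339. Their widths were 112 to 344 bp. Here 0 of the 9 had a neighbour within 100 kb, and the median distance to the nearest region was 474 kb. The section is 2 loose groups separated by the longest empty stretch of the chromosome.

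**Figure D3:**
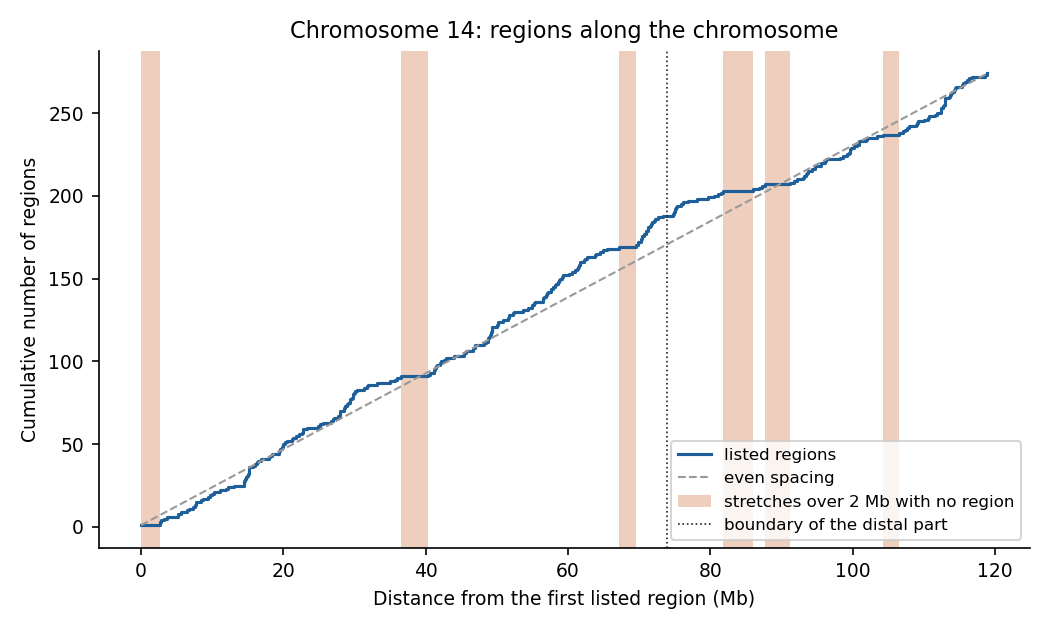
Cumulative number of the 274 regions against the distance from the first listed region in Mb. The dashed line shows even spacing, shading marks the 6 stretches over 2 Mb without a region, and the dotted line marks the 80 Mb boundary. The curve is flat over much of 85 to 100 Mb of the chromosome, which holds the longest stretch (4.25 Mb) and a stretch of 3.42 Mb.

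Stretches of more than 2 Mb without a region numbered 6, and together they took up 18.7 Mb or 15.7% of the span. The longest, of 4.25 Mb, ran from 87799603 to 92051704. The next, of 3.77 Mb, ran from 42559146 to 46324231 and emptied much of the thin window at 40 to 45 Mb. The third, of 3.42 Mb, ran from 93796340 to 97219815. Only 4 regions lay between it and the longest. A stretch of 2.71 Mb (6061614 to 8771519) followed the very first region. The remaining pair, of 2.29 Mb (73291200 to 75579092) and 2.25 Mb (110348022 to 112600710), lay mostly in the thin windows at 70 to 75 Mb and 110 to 115 Mb.

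These stretches were split evenly by number, with 3 in the proximal and 3 in the distal part. By length they took up 22.1% of the distal part (9.93 Mb) and 11.9% of the proximal part (8.76 Mb). Among all 73 autosomal stretches over 2 Mb, 8.22% were on chromosome 14, which makes up 4.95% of the autosomal span. The 3 longest of chromosome 14 ranked 5, 8 and 11 among all autosomal stretches. By the share of span in stretches over 2 Mb, chromosome 14 ranked 4 of 19, after chromosomes with up to 19.3%. Chromosomes 13 and 18 had 5.33% and 5.59%, with 2 such stretches each. Chromosome 2, with nearly the density of chromosome 13, had 13 such stretches and the highest share, 19.3%. A large share in long stretches was therefore not particular to chromosome 14 among the sparse autosomes.

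Leaving these stretches out raised the density of chromosome 14 to 2.73 per Mb, and chromosome 18, at 2.65, was then the sparsest autosome. Chromosome 13 had 2.91 per Mb on the same measure, and the other 18 autosomes together had 4.11. Low density on chromosome 14 was thus found both in the long empty stretches and outside them. At the lower limit of 1 Mb, 27 stretches took up 40.2% of the span, the highest share of the 19 autosomes, where the others ranged from 9.12% to 38.4%. Outside those, chromosome 14 was again lowest, with 3.85 per Mb against 3.93 on chromosome 18.

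**Figure D4:**
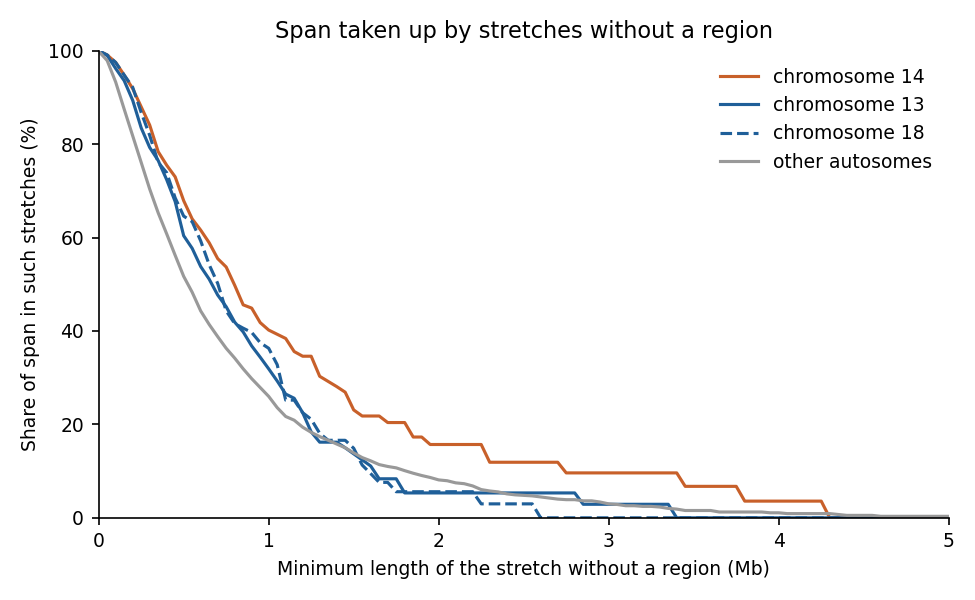
Share of the span (%) that lies in stretches without a region longer than the length on the horizontal axis (Mb), for chromosomes 14, 13 and 18 and for all other autosomes together. At 2 Mb the share is 15.7% on chromosome 14, 5.33% on 13, 5.59% on 18 and 8.12% on the other autosomes. Chromosome 2, close to 13 in density, has 19.3% and is not drawn separately.

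Windows of 1 Mb showed the same thinness in finer detail. Of 118 windows wholly inside the span, 23 (19.5%) were empty, the highest share of the 19 autosomes. The others ranged from 2.56% on chromosome 11 to 17.6% on chromosome 7. Beyond 80 Mb, 12 of 45 windows (26.7%) were empty, and before it 11 of 73 (15.1%). Most empty windows stood alone. The exceptions were a run of 4 from 88 to 92 Mb and runs of 3 from 43 to 46 Mb and from 94 to 97 Mb. A single region was found in 24 windows, and 6 or more in 8.

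The densest windows of 1 Mb held 7 regions each. One lay from 35 to 36 Mb, with regions between 35032244 and 35908456 and widths of 107 to 436 bp. The other lay from 77 to 78 Mb, with regions between 77029904 and 77798350 that included the narrowest of the chromosome (42 bp, 77029904 to 77029945). A further 6 windows held 6 regions each, the first of them from 20 to 21 Mb. Neighbouring windows of 6 occurred at 2 places, proximally from 20 to 22 Mb and distally from 118 to 120 Mb. At the distal place 12 regions fell between 118422656 and 119932557.

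Neighbouring regions were far apart. The median distance from a region to the nearest other was 141 kb (quartiles 44.1 and 288 kb), against 71.3 kb (27.4 and 156 kb) on the other autosomes. Chromosome 18 had 146 kb and was the 1 autosome with a longer median, and chromosome 13 had 109 kb. A neighbour within 100 kb was found for 115 regions, 42.0% (95% exact Clopper-Pearson interval 36.1 to 48.1), against 61.3% elsewhere on the autosomes. A distance over 500 kb was found for 25 regions (9.12%), against 3.83% elsewhere.

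Close neighbours were scarcer beyond 80 Mb. In the distal part 26.7% of 86 regions had a neighbour within 100 kb (95% exact Clopper-Pearson interval 17.8 to 37.4), and in the proximal part 48.9% of 188 (41.6 to 56.3). Having a near neighbour is mutual, so regions are not independent trials and these intervals are too narrow. The median nearest distance was 176 kb in the distal and 106 kb in the proximal part. It was 219 kb from 80 to 115 Mb and 164 kb from 115 Mb on. Even the full section at the end was therefore loosely spaced, with 28.1% of its 32 regions within 100 kb of another (13.7 to 46.7). In the window from 115 to 120 Mb, 7 of 20 regions (35%) had such a neighbour. In the 3 proximal windows with 19 regions the numbers were 9 (20 to 25 Mb), 10 (60 to 65 Mb) and 14 (75 to 80 Mb).

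At the shortest distances the difference was not seen. A neighbour within 10 kb was found for 8 distal regions, 9.30% (4.10 to 17.5), and for 11 proximal ones, 5.85% (2.96 to 10.2). Pairs less than 1 kb apart numbered 2, and both were distal. The closer pair, 491 bp apart, consisted of a region of 169 bp (118536748 to 118536916) and one of 390 bp (118537408 to 118537797). The other, 913 bp apart, consisted of a region of 408 bp (81154275 to 81154682) and one of 127 bp (81155596 to 81155722). Regions with a neighbour under 1 kb away made up 1.46% on chromosome 14 (0.399 to 3.70) and 1.74% on the other autosomes. Whether such pairs are 1 stretch of signal listed as separate regions was not tested.

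Groups of regions were small. When regions less than 100 kb apart were joined, 159 of the 274 stood alone and 37 pairs were formed. Only 11 groups held 3 or more, and the largest held 5. The groups of 5 lay at 21142698 to 21301428, at 55225273 to 55332378 and at 118906930 to 119107695. The densest 100 kb held 4 regions and occurred at 2 places. At the first, 20573729 to 20609749, the regions were 516, 555, 303 and 287 bp wide, and all were wider than the median. At the second, 55269793 to 55332378, they were 165, 112, 165 and 104 bp wide.

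Some regions lay far from any other. The first region (278 bp, 6061336 to 6061613) lay 2.71 Mb from its only neighbour. A region of 168 bp at 73291032 to 73291199 had no neighbour within 1.69 Mb, between empty stretches of 1.69 and 2.29 Mb. A region of 102 bp at 50111709 to 50111810 and one of 85 bp at 84238576 to 84238660 each lay 1.26 Mb from the nearest other. A region of 88 bp at 39189938 to 39190025 lay 1.17 Mb away. Apart from the first, these isolated regions were at most 168 bp wide. The next most isolated region, 0.873 Mb from its neighbour, was 344 bp wide (85731627 to 85731970). Over all 274 regions, width showed little relation to the distance to the nearest region (Spearman's rho -0.046). The 12 regions that border the 6 longest stretches had a median width of 117.5 bp and a range of 62 to 442 bp.

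Regions on chromosome 14 had ordinary widths. The median was 162 bp (quartiles 110.25 and 269 bp, range 42 to 801 bp), against 164 bp (113 and 253 bp) on the other autosomes. Together they covered 55855 bp, or 0.0470% of the span, against 0.0750% elsewhere. Under 100 bp in width were 51 regions, 18.6% (95% exact Clopper-Pearson interval 14.2 to 23.7), and on the other autosomes for 18.8%. From 100 to under 200 bp there were 119 regions (43.4%). The widest 28 regions held 25.7% of the covered bases.

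Wide regions were comparatively frequent. A width of 500 bp or more was found for 15 regions, 5.47% (3.10 to 8.87), the highest share among the 19 autosomes. The others ranged from 1.90% on chromosome 3 to 4.90% on chromosome 8, and 3.49% of all their regions were that wide. The interval of chromosome 14 held this value. The shares of chromosomes 13 and 18 were 2.17% and 3.26%, so low density did not go with a high share of wide regions on each of the 3 sparsest autosomes.

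The widest region, of 801 bp, lay at 55049773 to 55050573. It was followed by regions of 656 bp (124617678 to 124618333), 632 bp (52943000 to 52943631) and 624 bp (61030641 to 61031264). The second of these is the last region but 1 of the chromosome and borders an empty stretch of 1.82 Mb. The other members of the widest 10 spanned 600 bp (121372352 to 121372951), 591 bp (118422656 to 118423246), 577 bp (24535381 to 24535957), 572 bp (62907977 to 62908548), 555 bp (20576479 to 20577033) and 554 bp (64929055 to 64929608). Of these 10, 3 were distal, and all 3 lay beyond 115 Mb.

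Median width differed little across the 80 Mb boundary. It was 164.5 bp in the distal part (exact binomial interval of the median 138 to 183) and 160 bp in the proximal part (140 to 184). The sections on either side of 115 Mb lay further apart. From 80 to 115 Mb the median was 137.5 bp (118 to 174), and from 115 Mb to the end it was 184 bp (163 to 269). Regions of 500 bp or more were 12 of 188 in the proximal part (6.38%, 3.34 to 10.9) and 3 of 32 from 115 Mb on (9.38%, 1.98 to 25). Between 80 and 115 Mb, 0 of 54 regions were that wide, which allows a share of up to 5.56% by a limit of 3 counts and 6.60% by the exact interval. The widest there had 442 bp. A difference in the share of wide regions was not tested, and at these small counts the separate intervals overlapped. The section from 80 to 115 Mb had the lowest density and the lowest median width of the 3, but its interval for the median overlapped both others.

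**Figure D5:**
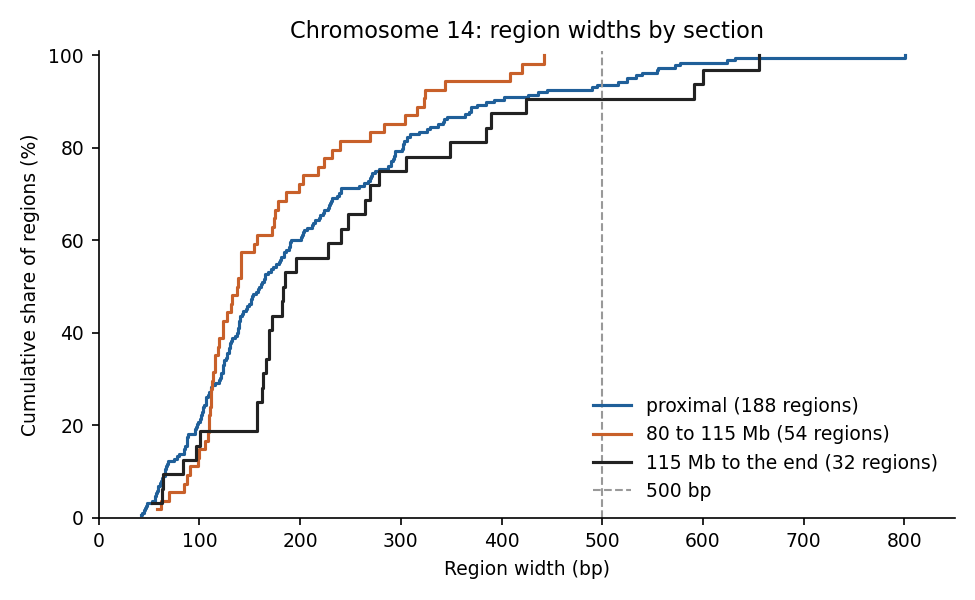
Cumulative share of regions (%) against region width (bp) for the proximal part and for the 2 sections of the distal part. The curve for 80 to 115 Mb reaches 100% at 442 bp, left of the dashed line at 500 bp, while the other curves extend to 801 and 656 bp.

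Width showed little relation to spacing region by region. Over the 274 regions, Spearman's rho between width and distance to the nearest region was -0.046. Over 23 windows of 5 Mb, rho between median width and number of regions was 0.12. Between the widths of 273 neighbouring pairs it was -0.07. The points share 1 list, and these values are given as a description.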

How the data were processed

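The data are 1 list of 9010 regions from the M5 (Meg3) clone. The authors deposited start and end coordinates on mm9, per the submitters' processing notes. Chromatin came from cells fixed with 1% glutaraldehyde and was sequenced as single-end reads of 50 bp, per the labels' protocols. The score columns as deposited hold 0 in all 9010 rows, so no height, p-value or depth is known. Peak caller, threshold, aligner and the use of the 3 libraries are not given in the sources used here, nor is the meaning of the word unique in the name of the list. A stricter threshold could not be applied.

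Starts were converted to count from 1, and regions were assigned to windows by their start. Density is the number of regions per Mb between the outermost regions of a chromosome, called its span, so assembly gaps and sequence where reads cannot be placed uniquely stay inside it. Functions were tested on simulated data. Python 3.11.15, pandas 2.3.3 and scipy 1.17.1 were used. Regions named with coordinates are the first, the 10 widest, the narrowest, those beside stretches over 2 Mb, pairs under 1 kb apart and those of the densest 100 kb. Other regions were picked with their values in view. The chromosome, the boundary and the measures were chosen with earlier results of these data known. A genome of mm9 was not used here, so no sequence is shown and gene positions were not analysed here.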

Additional observations from a re-analysis of the deposited data

How the results depend on the processing

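Alternatives changed the width limit, the span, the boundary, the window offset or the limit for a stretch, or merged regions under 1 kb apart. Leaving out long stretches and ending the distal part at 115 Mb were chosen after seeing the data. Chromosome 14 ranked 1 (sparsest) among the 19 autosomes in each alternative run except without stretches over 2 Mb, where it ranked 2 and its density was 2.73 per Mb. The ratio of distal to proximal density stayed below 1 in each alternative run, from 0.607 with the distal part ended at 115 Mb to 0.85 without stretches over 2 Mb. The main interval reached 0.975, and no interval was computed for the alternatives. Whether each of them is separated from 1 was not tested. No window of 5 Mb was empty under the alternatives run. For the shifted windows this was fixed in advance, because no stretch without a region reached 5 Mb. Keeping the 135 regions at or above the median width of 164 bp gave 1.14 per Mb, 16 stretches over 2 Mb, 44% of the span in them and a median nearest distance of 240.0 kb, since fewer regions were counted. Keeping the 223 regions of 100 bp or more gave 1.87 per Mb, with 23.8% of the span in such stretches. A limit of 1 Mb gave 27 stretches. The median width difference of 4.5 bp (distal minus proximal) was -7 bp with the boundary at 70 Mb and 11 bp at 90 Mb. Both values lay between -46 and 43 bp, which are opposite ends of the separate distal and proximal median intervals subtracted from each other. That range is not an interval of the difference itself, which was not computed. No paired analysis was possible because no condition has more than 1 library and the regions carry no value of any library. Read depth is not known here and limits which sites could enter the list.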
